A study of Homo sapiens with 8 samples.

Results

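The regions described here are 5219 sites in DU145 cells that carried an ETS1 peak in both deposited ETS1 lists and no peak of any other list of the series. They were chosen by overlap of at least 1 bp from 8183 ETS1 regions, which are the peaks of the first DU145 ETS1 list that meet the second, out of 9984 peaks in that first list. The 5 other lists in the rule were GABPA, ELF1, ELK4 and JUND in DU145, and ETS1 in PANC1. DU145 is a prostate cancer line and PANC1 a pancreatic cancer line, labelled epithelial and epithelial-like, and they were assayed by chromatin immunoprecipitation followed by sequencing (ChIP-seq). Each factor and line had 1 sample, with no treatment named. The growth protocol mentions puromycin for selected cells without saying whether these samples were selected. The overlaps chose the regions, so they are given below as a description. Intervals cover counting error over regions of 1 sample and say nothing of variation between cultures.

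ETS factors share a DNA-binding domain that reads a GGAA core, and several family members can be present in one epithelial cell. GABPA, ELF1 and ETS1 are known for occupying the same sites near the start sites of widely used genes, where any of several ETS proteins can bind. ETS1 is a target of ERK, the last kinase of the RAS pathway. Its known RAS-responsive sites often combine an ETS core with a neighbouring site for AP-1, the JUN and FOS dimer to which JUND contributes. ELK4 binds together with serum response factor. A region with ETS1 and none of the other lists is therefore one where no peak of GABPA, ELF1, ELK4 or JUND was called. Other ETS proteins and other JUN or FOS proteins were not assayed. The lists give positions only. Genes and sequence motifs at the regions were not analysed here, for want of an hg19 genome or annotation.

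The 5219 regions made up 63.8% of the ETS1 regions (95% Clopper-Pearson interval 62.7 to 64.8%). The remaining 2964 were met by at least 1 other list. GABPA accounted for most of them, with 1915 regions met by GABPA alone. JUND alone met 262, PANC1 ETS1 alone 168, ELF1 alone 86 and ELK4 alone 76, and 457 were met by 2 or more lists. The other lists are short. GABPA had 2478 peaks, JUND 1308, PANC1 ETS1 409, ELK4 337 and ELF1 256, and the reads behind them are unknown. Absence from such a list means that no peak was called, and does not show that the factor was absent.

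The rule turns on a single shared base, but few regions lay near that edge. Only 10 of the 5219 (0.192%) had a peak of another list less than 500 bp away. Of these, 4 were nearest to JUND, 4 to PANC1 ETS1, 1 to GABPA and 1 to ELK4. The closest, chr7:131012257-131012957 (hg19, as all positions here), was 28 bp from a GABPA peak. The next were chr10:104401556-104405680, 173 bp from a JUND peak, and chr4:95372729-95373495, 200 bp from an ELK4 peak. Just outside the rule, 2 of the 2964 met regions had no overlap of 50 bp or more. They were chr17:26971540-26972911, which shared 3 bp with a GABPA peak, and chr10:6779350-6779847, which shared 24 bp with a JUND peak.

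Regions met by no other list occurred through the first ETS1 list from line 13 on, while met regions began at line 1. The line order of both ETS1 lists carries rank-like information that no source explains. It is used here to place regions, to group them for comparison and to shorten lists in alternative settings. What the groups stand for is unknown. When the 8183 regions were divided by line of the first list into 5 equal groups, 603 of the 1637 in group 1 were met by no other list (36.8%, 34.5 to 39.2%). The share was 52.0% in group 2, 67.4% in group 3, 78.2% in group 4 and 84.5% (82.6 to 86.2%) in group 5. Group 5 held 1382 of the regions, or 26.5% of all 5219. In finer groups the share was nearly level at the start, from 34.6% to 38.0% over the first 4 of 20 groups, and again at the end, from 83.6% to 85.1% over the last 4. Among the first 100 lines, 28 of 99 regions (28.3%, 19.7 to 38.2%) were met by no other list. Early regions of the first list mostly stood early in the second list as well. The labels do not say whether the second list comes from a separate immunoprecipitation, so agreement between the 2 lists is no measure of reproducibility. Of the 603 in group 1, 504 (83.6%) also stood among the first 1 in 5 lines of the second list, as did 900 of the 1034 met regions of that group (87.0%).

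**Figure D1:**
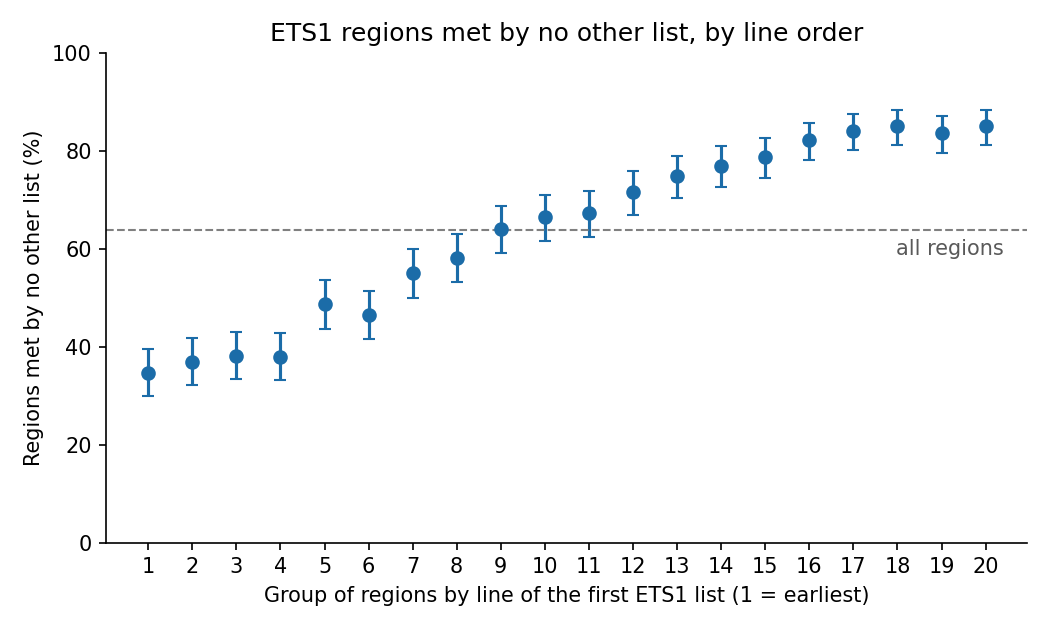
Share of ETS1 regions met by no other list (y axis, %) in 20 equal groups by line of the first DU145 ETS1 list (x axis, 1 = earliest lines), with 95% Clopper-Pearson intervals as bars; the dashed line is the share over all regions, 63.8%. The share stays between 34.6% and 38.0% in groups 1 to 4, climbs through the middle and stays between 83.6% and 85.1% in groups 17 to 20.

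The 8 regions placed earliest in both lists had no peak of another list closer than 30134 bp. The first by the sum of both line numbers lay on chromosome 8, at line 13 of the first list and 18 of the second, spanned 2604 bp and was 187237 bp from the nearest other peak, an ELK4 peak. The next, chr17:27276800-27280550, stood at lines 17 and 16 and was 229410 bp from a PANC1 ETS1 peak. At chr12:54120323-54122227, at lines 21 and 14, the nearest other peak was a GABPA peak 274239 bp away. These 3 regions rank among the top lines of both ETS1 lists with no peak of the 5 other lists within 100 kb. Such a distance is common, since only 49.8% of all 5219 regions, and 52.4% of those in group 1, had such a peak within 100 kb. Farther down the same series, chr16:87983647-87985808 stood at lines 24 and 19 with its second-list window on the same centre (0 bp apart), 183733 bp from GABPA. A GABPA peak was also the nearest to chr11:72144678-72146416, at lines 29 and 27 and a distance of 320605 bp. Of the 8 earliest, the 3 least isolated were chr14:73493101-73494899, 30134 bp from JUND, chr16:67839855-67841575, 34440 bp from GABPA, and chr17:21116360-21118814, 72023 bp from JUND. The 8 regions spanned 1721 to 3751 bp, above the median of all 5219.

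At the other end, the last regions in both lists were chr12:106697051-106697612, chr17:73125025-73125659 and chr16:70310843-70311433. They stood at lines 9947, 9977 and 9974 of the first list and at 9297, 9287 and 9300 of the second. Their widths were 562, 635 and 591 bp. All 3 lay closer to another list than any of the 8 earliest regions did. The chromosome 17 region was 1912 bp from GABPA, the chromosome 12 region 6526 bp from JUND and the chromosome 16 region 21338 bp from ELK4. These 3 do not stand for late regions at large. The median gap of unmet regions to any other list was 93268 bp in group 1 and 106439 bp in group 5. The shares within 10 kb were 7.96% and 9.84%.

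Regions met by no other list were narrower than the rest across all lines. At equal line order the difference was small and mostly ran the other way. The 5219 regions had a median width of 1188 bp (quartiles 929 and 1510 bp, range 414 to 8369 bp), against 1382.5 bp (1148.75 and 1707.25 bp) for regions met by another list. Within line-order groups the medians were 1690 bp for unmet and 1669.5 bp for met regions in group 1, 1434.5 and 1369 bp in group 2, 1268 and 1231.5 bp in group 3, 1071 and 1082 bp in group 4, and 799.5 bp for both in group 5. Across all lines, regions wider than the median of 1267 bp were met by no other list less often than narrower ones (54.5% against 73.0%, odds ratio 0.442, exact 95% interval 0.403 to 0.486). The rule asks for a shared base anywhere in the region, so a wide region meets another list more easily. The widths are therefore a description. Pooled within the 5 groups, the Mantel-Haenszel odds ratio was 1.15 (1.05 to 1.27), so the wider regions of a group were slightly more often unmet. Group 2 was the single group whose own interval left out 1 (1.42, 1.16 to 1.73), and the values of groups 4 and 5 were 0.938 and 1.

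**Figure D2:**
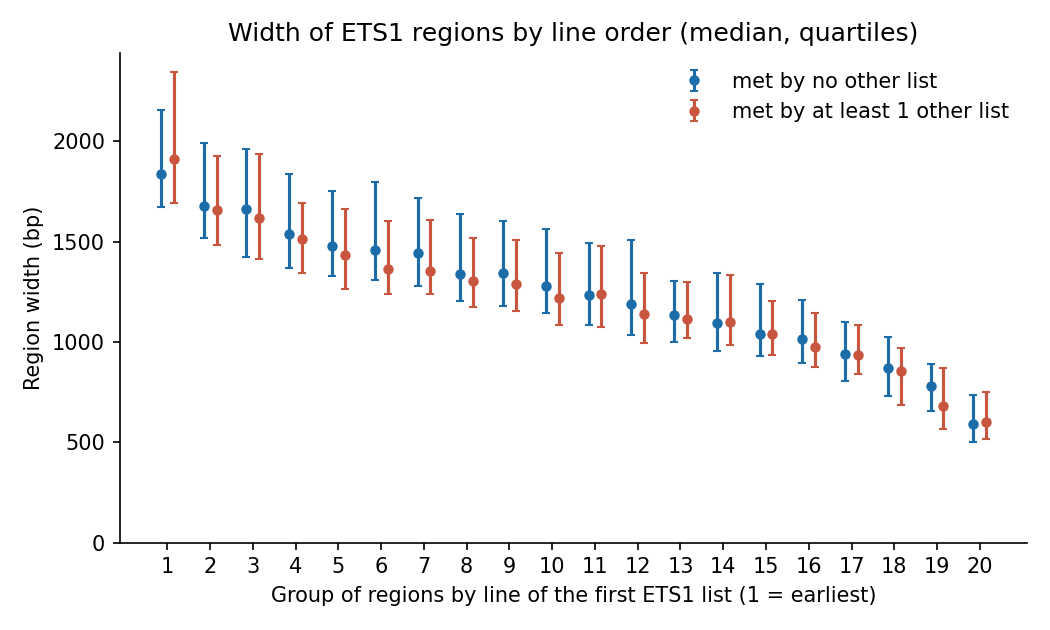
Width of ETS1 regions (y axis, bp) in 20 equal groups by line of the first DU145 ETS1 list (x axis, 1 = earliest); points are medians and bars the quartiles, blue for regions met by no other list and red for regions met by at least 1. Both sets narrow together along the list, and the 2 medians of each group lie within the other's quartiles.

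The widest region met by no other list, chr17:48132168-48140536, spanned 8369 bp. It stood at line 1424 of the first list and held 2 windows of the second list, the earlier at line 549, and a JUND peak lay 1077 bp outside it. The next were chr19:49465569-49471906 with 6338 bp, at lines 441 and 412, and chr6:32935196-32941411 with 6216 bp, at lines 1111 and 623. These were followed by chr18:3447620-3453648 with 6029 bp and chr12:122237380-122243000 with 5621 bp, the latter 1970 bp from a GABPA peak. All 5 stood in groups 1 and 2 by line order. Regions of this breadth are rare in the set, since 90% of its members were at most 1911 bp wide.

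How well the 2 ETS1 lists agreed on position was not part of the rule beyond the shared base. Nearly all regions met by no other list, 5192 of 5219, held a single second-list window, and 27 held several. The window lay wholly inside the region in 4490 cases (86.0%, 85.1 to 87.0%) and was less than 50% covered in 115 (2.20%). Among met regions the window lay wholly inside in 95.7%. Within line-order groups the difference was smaller, with a pooled odds ratio of 0.735 (0.589 to 0.917) against 0.278 without grouping. The shares were 99.8% for unmet and 100% for met regions in group 1 and 60.3% and 61.4% in group 5. Group 4, with 89.1% and 95.5%, was the single group whose odds ratio interval left out 1 (0.385, 0.211 to 0.659). A narrow region holds a whole window less easily, and unmet regions were narrower across all lines. The part of width in these shares was not tested. Spearman's rho between the line numbers of the 2 lists was 0.785 over the unmet and 0.886 over the met regions. Both are correlations across regions of 1 sample, given as a description.

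The centres of the 2 lists lay farther apart at regions met by no other list. The distance between the region's centre and that of its second-list window had a median of 122 bp (quartiles 54 and 233 bp), against 98 bp (44 and 189.25 bp) at met regions. Centres within 100 bp of each other were found at 42.4% of unmet regions (41.1 to 43.8%, 2213 of 5219) and at 51.1% of met regions (49.3 to 53.0%, 1516 of 2964). The odds ratio was 0.703 (exact 95% interval 0.642 to 0.771), and within line-order groups 0.716 (0.650 to 0.789). The share was lower at unmet regions in each of the 5 groups, from 47.4% against 51.0% in group 1 to 44.4% against 54.7% in group 5, although the intervals of the odds ratio held 1 in groups 1 and 4.

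The difference depended on which list met the region. Regions met by GABPA alone had close centres in 55.3% of cases (53.0 to 57.5%), and those met by ELF1 alone in 62.8% (51.7 to 73.0%). Within line-order groups the odds of close centres at unmet regions were lower than at both, with odds ratios of 0.605 against GABPA (0.522 to 0.701) and 0.441 against ELF1 (0.246 to 0.791), both with intervals widened to 99% for the 5 lists compared. For ELK4 alone the share was 47.4%, with an odds ratio of 0.830 (0.458 to 1.51). For JUND alone it was 34.7% (29.0 to 40.8%) and for PANC1 ETS1 alone 38.7%. The odds ratios of unmet regions against these were 1.40 (0.997 to 1.98) and 1.24 (0.811 to 1.88), so both intervals held 1. When the GABPA list was taken out of the rule, the odds ratio of all unmet against all met regions turned to 1.16 (1.02 to 1.33) within line-order groups and to 1.10 (0.961 to 1.25) without grouping, where the interval held 1. Width moved with these classes, with medians of 1325 bp for GABPA alone, 1491.5 bp for JUND alone and 1637.5 bp for PANC1 ETS1 alone against 1188 bp for unmet regions, and its part in the difference was not tested.

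**Figure D3:**
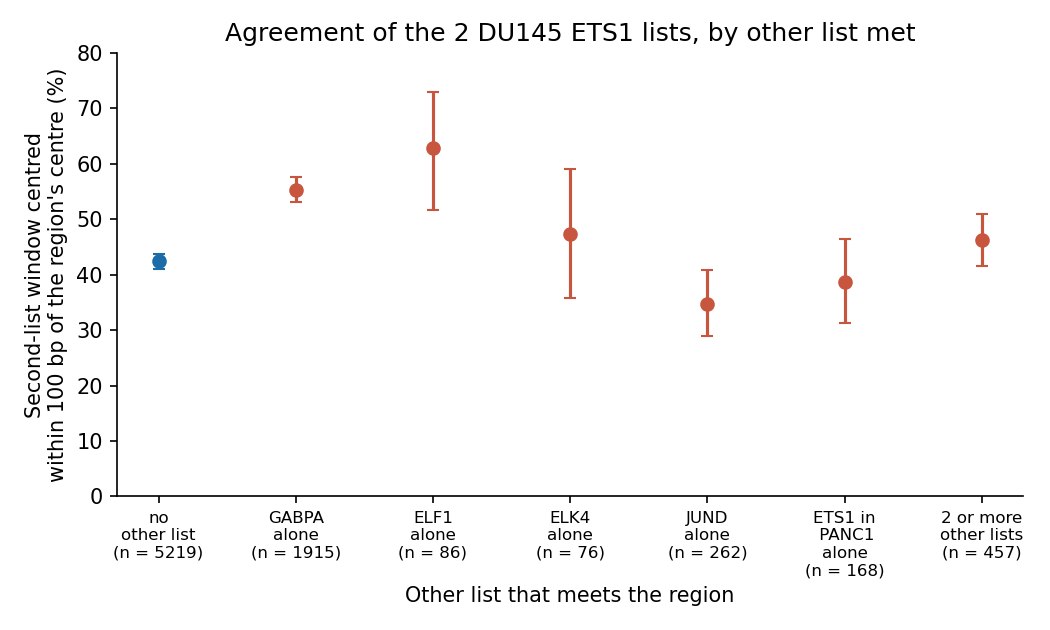
Share of ETS1 regions whose second-list window is centred within 100 bp of the region's own centre (y axis, %), by the other list that meets the region (x axis, with the number of regions), with 95% Clopper-Pearson intervals. Regions met by no other list (blue, 42.4%) lie below those met by GABPA alone (55.3%) and ELF1 alone (62.8%). Their interval overlaps those of ELK4 alone (47.4%) and PANC1 ETS1 alone (38.7%). The value for JUND alone (34.7%) is lower, but the odds ratio interval widened to 99% held 1 there.

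Few regions met by no other list had a peak of another list in their close surroundings. The gap to the nearest such peak had a median of 100781 bp (quartiles 33773 and 284947 bp). Of the 5219, 459 (8.79%) had another list's peak within 10 kb, 2601 (49.8%) within 100 kb, and 372 (7.13%) had none within 1 Mb. The nearest peak belonged to GABPA for 2911 regions and to JUND for 1479, the lists with the most peaks. ELK4 was nearest for 316, PANC1 ETS1 for 314 and ELF1 for 199. Taken list by list, the median gap was 173192 bp to GABPA, 447204 bp to JUND and longer to each of the other lists. The GABPA value was 320754 bp with the earlier lines of every DU145 list up to its midpoint, and 81068.5 bp when GABPA was taken out of the rule. The first setting shortens the GABPA list itself. The second adds the 1915 regions met by GABPA alone, which overlap a GABPA peak and so have no gap to it. Neither value therefore measures a change in distance for the same regions.

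Regions met by another list were more often close to a further peak. Leaving aside the peaks that overlap them, 13.0% of met regions (11.8 to 14.3%) had a peak of the 5 lists within 10 kb, against 8.79% (8.04 to 9.60%) of the unmet. The values for GABPA were 7.05% and 4.50%, for JUND 5.77% and 3.81%, and for PANC1 ETS1 2.67% and 1.17%. Since these lists chose the regions, the shares are a description. Between the earliest and the latest unmet regions the order depended on the distance. A peak of any other list lay within 10 kb of 7.96% in group 1 (5.93 to 10.4%, 48 of 603) and of 9.84% in group 5 (8.32 to 11.5%, 136 of 1382), and within 100 kb of 52.4% and 48.9%. For GABPA the shares within 100 kb were 41.3% (37.3 to 45.3%) in group 1 and 34.2% (31.7 to 36.7%) in group 5, with median gaps of 142765 and 184263 bp.

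**Figure D4:**
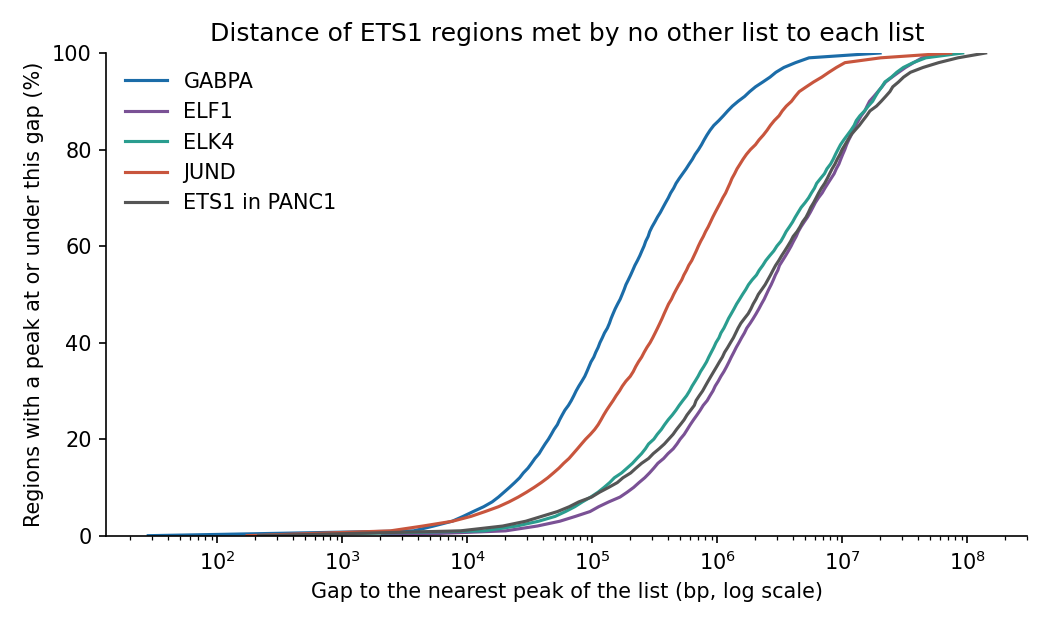
Cumulative share of the 5219 regions met by no other list (y axis, %) whose nearest peak of each list lies at or under a given gap (x axis, bp, log scale), with 1 line per list; regions on chromosomes without a peak of a list are left out of its line. The median gap is 173192 bp for GABPA and 447204 bp for JUND, and the shorter lists lie to the right.

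The regions were spread over all 24 chromosomes, from 531 on chromosome 1 to 5 on chromosome Y. Against met regions, the odds of lying on a given chromosome had exact 95% intervals that left out 1 for 5 of 24. Chromosomes 4 (71.6% of its ETS1 regions unmet, odds ratio 1.45) and 10 (71.2%, 1.42) were above, and chromosomes 11 (58.1%, 0.778), 19 (57.7%, 0.755) and 20 (55.6%, 0.704) below. With intervals widened for the 24 comparisons only chromosome 19 remained, which is 4.17% of the chromosomes compared. It held 388 of the unmet and 285 of the met regions (odds ratio 0.755, 0.586 to 0.975). Within line-order groups the chromosome 19 value was 0.806 (95% interval 0.679 to 0.955), and its widened interval, 0.616 to 1.05, held 1. Without grouping, the widened interval also held 1 in 4 of 12 settings of the rule. Within line-order groups, chromosome 7 was the single one whose widened interval left out 1 (1.45, with a 95% interval of 1.16 to 1.83). Its value without grouping was 1.21, and the widened interval there, 0.865 to 1.70, held 1. No chromosome passed both ways.

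**Figure D5:**
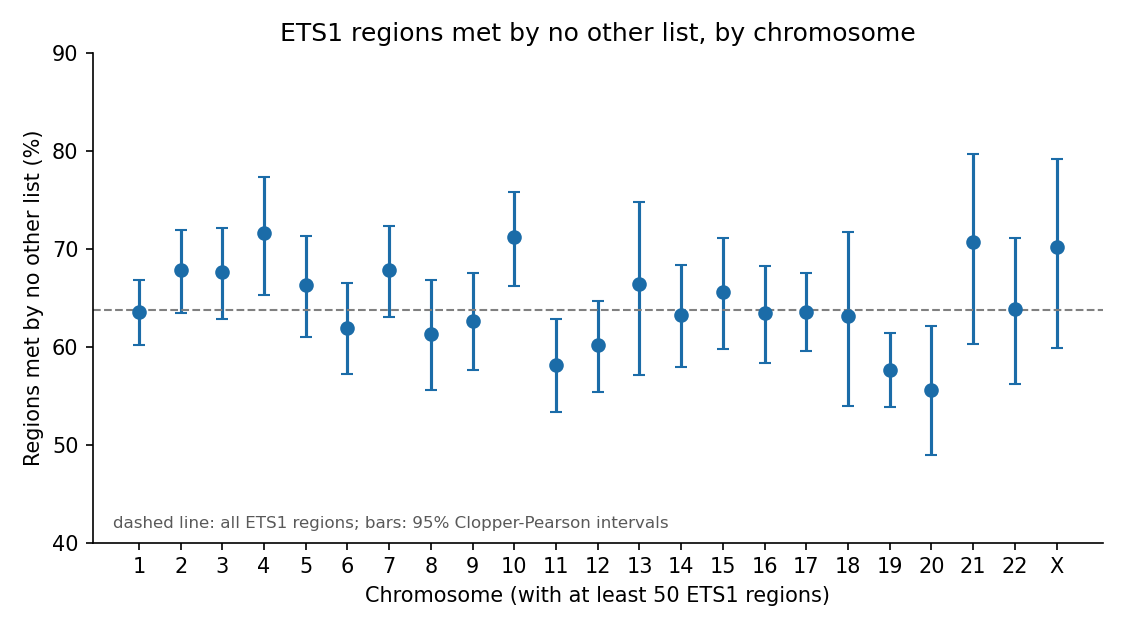
Share of ETS1 regions met by no other list (y axis, %, axis from 40 to 90) on each chromosome with at least 50 ETS1 regions (x axis), with 95% Clopper-Pearson intervals; the dashed line is the share over all regions, 63.8%. Chromosomes 4 (71.6%) and 10 (71.2%) are highest, and chromosomes 19 (57.7%) and 20 (55.6%) are lowest.

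Along the chromosomes the nearest other region of the set was a median of 74611 bp away. It lay within 10 kb for 559 regions (10.7%, 9.88 to 11.6%), within 50 kb for 2033 (39.0%) and within 1 Mb for 96.5%. Where any ETS1 region lay within 10 kb of an unmet one, it was itself unmet in 537 of 854 cases (62.9%, 59.5 to 66.1%). From met regions the neighbour was unmet less often, in 328 of 614 cases (53.4%, 49.4 to 57.4%). Another ETS1 region lay within 10 kb of 16.4% of unmet and 20.7% of met regions. The 63.8% of all regions is therefore not the base share for such neighbours. Neighbouring pairs count from both sides, so these cases are not independent. Of the 1664 bins of 1 Mb with such a region, 547 held exactly 1, and 69 held 10 or more. Those 69 bins together had 877 regions, or 16.8% of the set.

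The densest bins were on chromosomes 19 and 16. From 49000001 to 50000000 on chromosome 19, 23 of 27 ETS1 regions were met by no other list (85.2%, 66.3 to 95.8%), and the other 4 were met by GABPA. A run of 18 consecutive unmet regions lay here, between 49137667 and 49487298, and 1 of the widest regions named above is among them. Runs of 18 also occurred on chromosomes 5, 7 and 15, where they spanned 11499107 to 14779777 bp instead of 349632 bp. These runs were picked for their length from 1818 runs. How long a run the 63.8% share of all regions would give by itself was not tested. From 30000001 to 31000000 on chromosome 16, 20 of 32 regions were unmet (62.5%, 43.7 to 78.9%), with GABPA at 9, JUND at 3 and 1 each for ELF1, ELK4 and PANC1 ETS1. The share in the chromosome 16 bin was close to the 63.8% of all regions, while that in the chromosome 19 bin lay above it. The bins were picked for their density, which these intervals do not allow for.

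Among the 82 bins with at least 15 ETS1 regions, some chosen after their values were seen had few unmet regions. On chromosome 6, the bin from 28000001 had 3 of 16 and the bin from 26000001 had 4 of 20, with GABPA at 11 of the former and PANC1 ETS1 at 15 of the latter. On chromosome 19, the bin from 58000001 had 8 of 35, with GABPA at 24, and the bin from 39000001 had 4 of 17, with PANC1 ETS1 at 8. The Clopper-Pearson intervals of these bins, with upper ends of 45.6%, 43.7%, 40.1% and 49.9% in the order named, lay below the 63.8% of all regions. At the other extreme, the bin from 41000001 on chromosome 15 had 15 of 17 unmet (63.6 to 98.5%). The bin from 67000001 on chromosome 11 had 16 of 19 (60.4 to 96.6%). Both of these intervals held 63.8%, so neither bin was set apart from the share of all regions. None of the intervals allows for the choice from 82 bins. Chromosome 19 thus held both the bin with the most unmet regions and, from 58000001, a bin where 22.9% of the ETS1 regions were unmet.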

How the data were processed

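ChIP-seq peak lists of 6 samples were used, 1 sample per factor and line. The 2 input samples were not analysed here. Positions are on hg19, per the labels. Bowtie2 2.0.6 is listed, with no role, in the submitters' processing notes. The deposited files hold 3 columns (chromosome, start, end) and no score, fold or count, so depth is unknown. For the peak caller and its threshold, the sources used here give no name or value. The 2 DU145 ETS1 lists belong to 1 sample and were counted as 1.

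Regions, members and lists were chosen with earlier results of these data known. Named regions are the 8 earliest and 3 latest by the sum of line numbers, the 5 widest, the 3 closest to another list and the 2 densest 1 Mb bins. A region with several second-list windows was compared with the one it overlaps most, and its line in the second list is the earliest. Shares carry 95% Clopper-Pearson intervals, and odds ratios carry exact conditional or Mantel-Haenszel intervals, widened to 99% for 5 lists and by the same division for 24 chromosomes. No p-value was computed, as each group had 1 sample. The steps were tested on simulated data. Python 3.11.15, NumPy 2.4.6, SciPy 1.17.1 and Matplotlib 3.10.9 were used. Planned analyses of start sites, genes, motifs and base composition needed an hg19 genome or annotation and were not run.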

Additional observations from a re-analysis of the deposited data

Results flagged for a closer look

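Peaks present in a single DU145 ETS1 list entered no comparison above, and some of them were met by another factor or by PANC1 ETS1. Of the 1801 peaks of the first list that are absent from the second, 133 (7.38%, 95% Clopper-Pearson interval 6.22 to 8.69%) were met by another list, 67 of them by GABPA and 43 by JUND. Of the 1082 peaks of the second list that are absent from the first, 127 (11.7%, 9.88 to 13.8%) were met, 38 by GABPA and 68 by JUND. Both shares were below the 36.2% (35.2 to 37.3%) of regions present in both lists. Peaks of the first list alone were narrow, with a median of 720 bp, and the part of width was not tested. Among the peaks of the second list alone JUND met more than GABPA, whereas among regions present in both lists GABPA met 2302 and JUND 400.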

How the results depend on the processing

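The rule was varied in 12 ways, 11 of them planned and 1 (GABPA as the single other list) chosen after seeing the data, as were the comparisons within line-order groups. With the earlier lines of every DU145 list up to its midpoint, 2672 regions were met by no other list (65.99%), their median width was 1478 bp and 5.73% had another within 10 kb. With only the ETS1 lists shortened in that way the values were 1894 (46.8%), 1491 bp and 3.22%. Without GABPA in the rule they were 7134 (87.2%), 1238 bp and 13.9%, and with GABPA alone 5881 (71.9%), 1212 bp and 14.1%. Without JUND the share was 66.98% and the share with another within 10 kb 12.7%, and without the PANC1 list the share was 65.8%. Second-list peaks as units gave 65.2%, and intervals of 500 bp gave 9.15% within 10 kb. The median widths in these settings, 497 and 500 bp, were set by the units themselves. The odds ratio of close centres turned above 1 in 1 of 12 settings, without GABPA in the rule, to 1.16 within line-order groups and 1.10 (0.961 to 1.25) without them. In the other 11 it ranged from 0.618 to 0.759. The chromosome 19 odds ratio turned to 1.04, or 1.11 within line-order groups, with the earlier lines of every DU145 list, and both intervals held 1. Without grouping, its widened interval also held 1 with the ETS1 lists alone shortened (0.95, 0.675 to 1.33), without PANC1 (0.788, 0.610 to 1.02) and without GABPA (0.818, 0.579 to 1.18). Apart from the 497 and 500 bp widths, the causes were not tested. The share of occupied bins with exactly 1 region was 46.6% for 500 kb bins and 7.90% for 5 Mb bins. Alternatives for start sites, motifs and genes were not run. Unknown depth limits every statement on absence from a list. No paired analysis was possible because each group has 1 sample.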
